A study of Mus musculus with 8 samples.

Results

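Osteopontin (Spp1), fibronectin (Fn1), the adhesion protein Tgfbi, thrombospondin-1 (Thbs1), versican (Vcan), the secreted serine protease Htra3 and the matrix metalloproteinases Mmp9, Mmp12 and Mmp14 are the 9 matrix genes described here, out of 33696 genes in the annotation of the libraries. They were found by symbol in the gene list of each library, and each symbol matched 1 gene. The set was chosen by the levels of its genes in the cell types and genotypes of these same libraries, so the levels and genotype differences of the 9 genes are given as descriptions, with no p-values, and nothing is read from which of them passed a threshold. The libraries hold CD45+ leukocytes sorted from liver metastases at day 30 after Venus-AKTPM/LOH colorectal cancer cells were injected into the spleen. There were 2 Vav1CreTet2KO mice, here knockout 1 and 2, in which Cre under the Vav1 promoter deletes floxed Tet2 across the blood lineages, and 2 Tet2fl/fl mice without the deletion, here control 1 and 2. Both genotypes carried the same tumour cells and were sorted alike on CD45.2 and 7-AAD, after collagenase A and DNase I digestion, so tumour cells, fibroblasts and endothelium, other known sources of these proteins, were meant to be left out. Age and sex are not given in the sources used here.

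Osteopontin and fibronectin are secreted glycoproteins that bind integrins, and osteopontin also binds CD44. Tgfbi, thrombospondin-1 and versican are matrix proteins of the same neighbourhood: Tgfbi is induced by TGF-beta, thrombospondin-1 can activate latent TGF-beta, and versican is a large proteoglycan. Mmp9 is the gelatinase stored in neutrophil granules, Mmp12 is macrophage elastase, Mmp14 is a membrane-bound collagenase, and Htra3 is a secreted serine protease. In tumours and injured tissue, monocytes and macrophages are known to make several of these proteins, and osteopontin is widely used as a marker of a tumour-associated macrophage state.

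The stretches just upstream of 3 of the genes are shown because these genes mark the patterns below: Spp1 and Mmp12 were concentrated in arginase-expressing macrophages, and Htra3 differed most between the genotypes. Each is the 250 bases that end at the base before a transcription start, read 5′ to 3′ on the gene's strand, from RefSeq on GRCm38.p6, a build older than the GRCm39 of the libraries. Capitals mark matches, on either strand, to the PU.1 core GAGGAA or the AP-1 site TGANTCA; a GC box, GGGCGG, was searched for too.
Spp1, first start site, chr5:104434861-104435110, plus strand: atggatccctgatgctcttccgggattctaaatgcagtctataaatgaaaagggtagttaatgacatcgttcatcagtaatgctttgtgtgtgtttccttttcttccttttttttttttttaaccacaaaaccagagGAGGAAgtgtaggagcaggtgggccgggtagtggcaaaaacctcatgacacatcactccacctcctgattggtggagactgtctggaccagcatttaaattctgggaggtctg
Htra3, chr5:35679781-35680030, minus strand: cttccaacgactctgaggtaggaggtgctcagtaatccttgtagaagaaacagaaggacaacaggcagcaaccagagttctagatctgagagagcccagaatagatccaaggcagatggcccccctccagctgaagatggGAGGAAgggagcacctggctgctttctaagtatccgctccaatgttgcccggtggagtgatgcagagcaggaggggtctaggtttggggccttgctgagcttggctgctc
Mmp12, second start site, chr9:7347124-7347373, plus strand: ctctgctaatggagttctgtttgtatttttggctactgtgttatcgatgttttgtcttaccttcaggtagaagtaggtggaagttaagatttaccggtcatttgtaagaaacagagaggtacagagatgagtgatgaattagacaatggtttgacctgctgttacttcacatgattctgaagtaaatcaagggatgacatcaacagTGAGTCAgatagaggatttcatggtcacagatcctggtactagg

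The Spp1 window held 1 PU.1 core, 113 bases before the start, and the Htra3 window held 1, 110 bases before it. The Mmp12 window at the second start site held 1 AP-1 match, 44 bases before the start, and the window at its first start site held 1 PU.1 core, 86 bases before. Of all 32851 upstream windows of this length, 23.3% held the PU.1 core, 6.75% the AP-1 site and 32.7% the GC box. The single Tgfbi window held 1 GC box, the Vcan window 2 and the Mmp14 window 2, and neither of the other motifs; the second Spp1 window held none of the 3. These 8 windows came from 6 of the 9 genes, the others being Fn1, Thbs1 and Mmp9. A match describes the letters only and says nothing of whether a factor binds there. In GRCm39, Spp1 lies on chromosome 5 from 104582165 to 104589235, Htra3 on chromosome 5 from 35809367 to 35837126 and Mmp12 on chromosome 9 from 7344381 to 7369499, and all 3 are protein coding.

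Tet2 itself had 37.8 and 32.3 CPM, UMIs scaled to a fixed total, in the knockout libraries and 67.2 and 65.9 CPM in the control libraries. The deleted exon is not named in the sources used here and 5′ reads can lie outside it, so these levels do not check the deletion. Ptprc, the gene of CD45, was at 392 to 547 CPM in the 4 libraries. The libraries held 10917 to 13870 cell barcodes and 57190926 to 91789597 UMIs, and any pair shared 272 to 303 barcodes. After filters and removal of 309 to 515 called doublets per library, 10432 to 13083 cells per mouse were used. Cells were grouped into 35 clusters without the 9 genes and without 117 related matrix genes, and classes were named from marker genes. Monocyte/macrophage-like cells made up 9.55% and 11.1% of knockout cells against 55.5% and 60.9% of control cells, and B-like cells 42.2% and 44.6% against 5.85% and 4.75%. Because the classes differ this much in size, whole-library levels of a macrophage gene differ with them, and the comparisons below were made within classes. Within a class the summed level still cannot separate fewer expressing cells from less RNA per cell.

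Across the 8 leukocyte classes plotted, the members fell into 3 patterns. Fn1, Vcan, Mmp12 and Mmp14 were highest in the monocyte/macrophage-like class in every mouse, Mmp9 was highest in neutrophil-like cells in every mouse, and Thbs1 was higher in neutrophil-like than in monocyte/macrophage-like cells in every mouse. Tgfbi was highest in monocyte/macrophage-like cells, with conventional dendritic-like and neutrophil-like cells next. Spp1 was highest in monocyte/macrophage-like cells in 3 mice and in neutrophil-like cells in knockout 2, where the values were 112 and 122 CPM, and Htra3 was highest in different classes in the 2 genotypes. Outside these classes, proliferating cells of control 2 had 260 CPM of Vcan and unnamed clusters 214 CPM, above the 181 CPM of its monocyte/macrophage-like cells. Lymphocyte classes stood far lower for most members, as the plot of levels by leukocyte class shows.

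**Figure D1:**
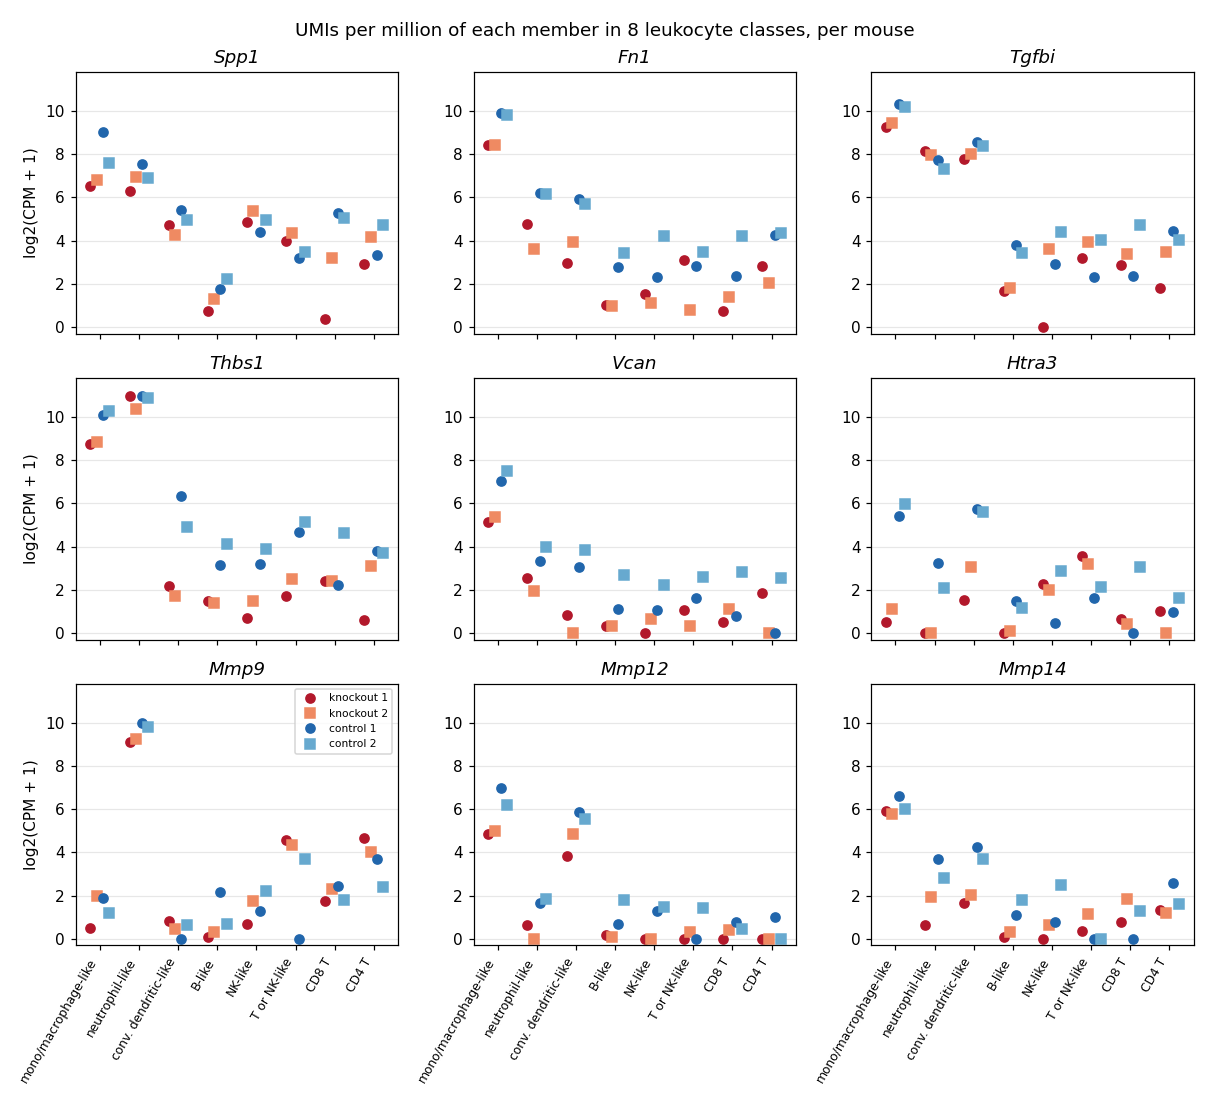
Level of each of the 9 genes, as log2(CPM + 1) on the y axis, in 8 leukocyte classes, with 1 point per mouse (red circle and orange square, knockout 1 and 2; dark and light blue, control 1 and 2). Fn1, Vcan and Mmp14 are highest in monocyte/macrophage-like cells, Mmp9 in neutrophil-like cells, and Htra3 in T or NK-like cells in the knockout mice but in myeloid cells in the control mice.

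Among the monocytes and macrophages, osteopontin was highest in arginase-expressing cells, and these were scarce in the knockout mice. Monocyte/macrophage-like cells had 91.2 and 112 CPM of Spp1 in the knockout mice against 522 and 189 CPM in the control mice. Both control values were above both knockout values, but control 1 stood far above control 2. The fitted log2 difference was -1.90 ± 0.59 (SE, edgeR, 2 against 2 mice), 3.74-fold lower in the knockout, and it was -1.01 without control 1.

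Within the class, Spp1 was highest in the arginase macrophage-like cluster, led by Arg1, the arginase of alternatively activated macrophages, and by the chemokines Ccl24 and Ccl17. There it reached 1005 and 658 CPM in the knockout mice against 1554 and 958 CPM in the control mice. The values of the 2 genotypes overlap, and the knockout values rest on 9 and 24 cells, against 1518 and 1074 control cells. Of these cells, 22.2% and 75.0% had a Spp1 UMI in the knockout mice against 64.8% and 46.5% in the control mice (exact Clopper-Pearson 95% intervals of 2.81% to 60.01%, 53.3% to 90.2%, 62.3% to 67.2% and 43.4% to 49.5%). With each cell thinned to 1000 UMIs the shares were 11.1%, 33.3%, 36.3% and 26.9%. In B-like cells, which should lack the gene, 0.136% to 0.578% of cells had a Spp1 UMI, at median depths of 2207.5 to 3065 UMIs per cell against 7939.5 to 10273 in arginase cells.

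Macrophage-like cells outside that cluster had 147 and 170 CPM of Spp1 in the knockout mice against 323 and 120 CPM in the control mice. The groups overlap, with control 1 highest and control 2 lowest. Monocyte-like cells had 0.789 and 9.54 CPM against 28.6 and 22.3 CPM, so macrophage-like cells were higher than monocyte-like cells in each mouse, 5.39 to 17.8 times in 3 mice and 187 times in knockout 1, where the monocyte-like value rests on 2 UMIs. The cluster of arginase cells held 3.27% and 6.57% of all Spp1 UMIs in the knockout libraries and 71.6% and 68.9% in the control libraries. Leaving that cluster out (an alternative added after the data were seen), the class had 80.8 and 96.3 CPM in the knockout mice against 176 and 55.6 CPM in the control mice, so the groups overlapped, with a fitted difference of -0.47 ± 0.71. With each subclass weighted as in the control mice, the class values were 250 and 192 CPM for the knockout mice and 431 and 241 CPM for the control mice, so here too the groups overlapped. The lower Spp1 of the knockout class went with a smaller share of arginase cells, 0.904% and 1.94% of class cells against 23.1% and 13.5%. The reweighted knockout values rest on 9 and 24 arginase cells, and the monocyte-like values above did not overlap between genotypes. The part of the mix of subclasses in the Spp1 difference was not tested.

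A further source of Spp1 lay outside the leukocytes. A cluster of 53 cells led by Clu, Krt18, Krt8 and Alb held 58.6% and 43.2% of the Spp1 UMIs of the knockout libraries, but 0.00291% and 0.327% in the control libraries. Of these cells, 10 had a UMI of the keratin genes Krt8, Krt18 or Krt19, and these 10 carried 3159 Spp1 UMIs, against 1 UMI in the other 43. Over all cells used, Spp1 stood at 58.5 and 51.9 CPM in the knockout mice against 404 and 149 CPM in the control mice. Without that cluster, also an added alternative, the knockout values were 24.3 and 29.5 CPM and the control values 404 and 149 CPM, so both control mice remained above both knockout mice.

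**Figure D2:**
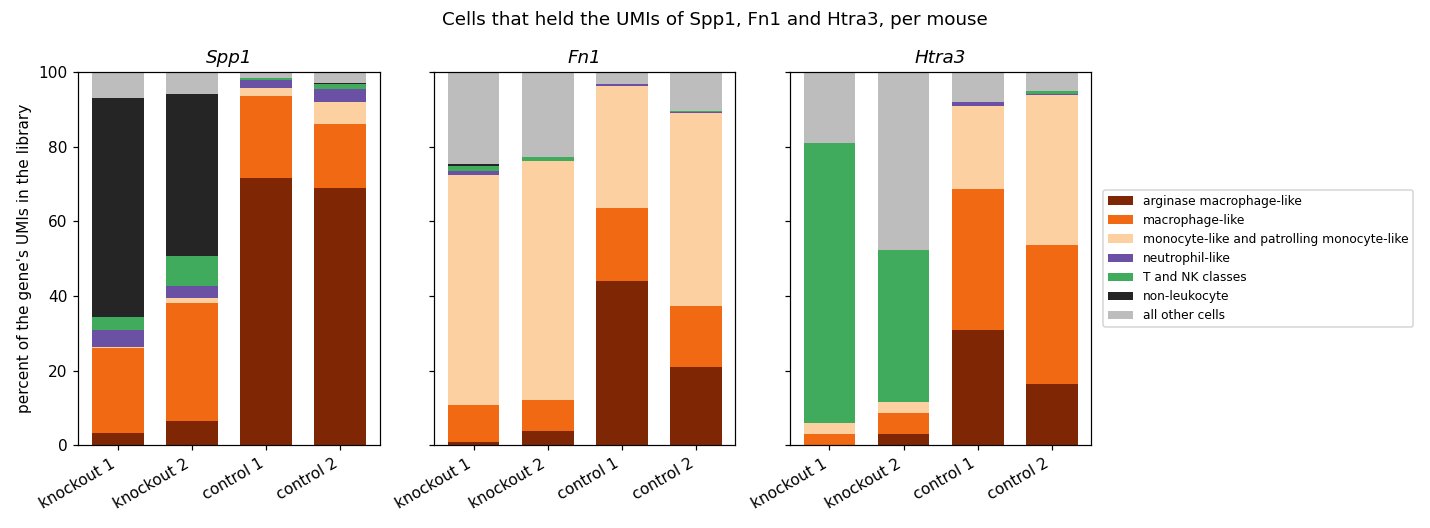
Percent of the UMIs of Spp1, Fn1 and Htra3 (y axis, 0 to 100) that lay in each set of cells, with 1 stacked bar per mouse. Arginase macrophage-like cells hold 71.6% and 68.9% of Spp1 UMIs in the control mice, non-leukocyte cells 58.6% and 43.2% in the knockout mice, and T and NK classes 75.0% and 40.8% of the few Htra3 UMIs in the knockout mice.

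Fibronectin was alike between the genotypes in monocyte-like cells and lower in the knockout mice in macrophage-like cells. Monocyte-like cells had 955 and 832 CPM of Fn1 in the knockout mice against 907 and 947 CPM in the control mice. These values overlap, and the fitted difference was -0.09 ± 0.11. Macrophage-like cells had 88.7 and 72.0 CPM in the knockout mice against 525 and 549 CPM in the control mice. The knockout values are far below both control values, with a fitted difference of -2.80 ± 0.14, or 6.98-fold lower. The level in macrophage-like cells was 0.0929 and 0.0865 times that in monocyte-like cells in the knockout mice against 0.579 times in each control mouse. That change of the ratio between genotypes was not tested by a model.

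The share of macrophage-like cells with a Fn1 UMI was 18.8% and 18.9% in the knockout mice against 64.1% and 74.2% in the control mice, and 5.61%, 5.32%, 29.4% and 33.3% after thinning to 1000 UMIs. In B-like cells it was 0.182% and 0.262% against 1.16% and 2.25%. Macrophage-like cells had median depths of 10644.5 and 9282 UMIs in the knockout mice against 9891 and 7939 in the control mice, so depth overlapped between the genotypes. Patrolling monocyte-like cells had 148 and 202 CPM of Fn1 against 265 and 451 CPM, without overlap. Arginase macrophage-like cells had 329 and 610 CPM against 1750 and 1426 CPM, with the knockout values again resting on 9 and 24 cells.

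Over the whole class, Fn1 stood at 341 and 345 CPM in the knockout mice against 959 and 888 CPM in the control mice, a fitted difference of -1.54 ± 0.11. At the control mix of subclasses the values were 520 and 518 CPM against 930 and 897 CPM. Both mixes kept the control mice above the knockout mice, and so did the class without arginase cells, at 342 and 337 CPM against 694 and 794 CPM.

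**Figure D3:**
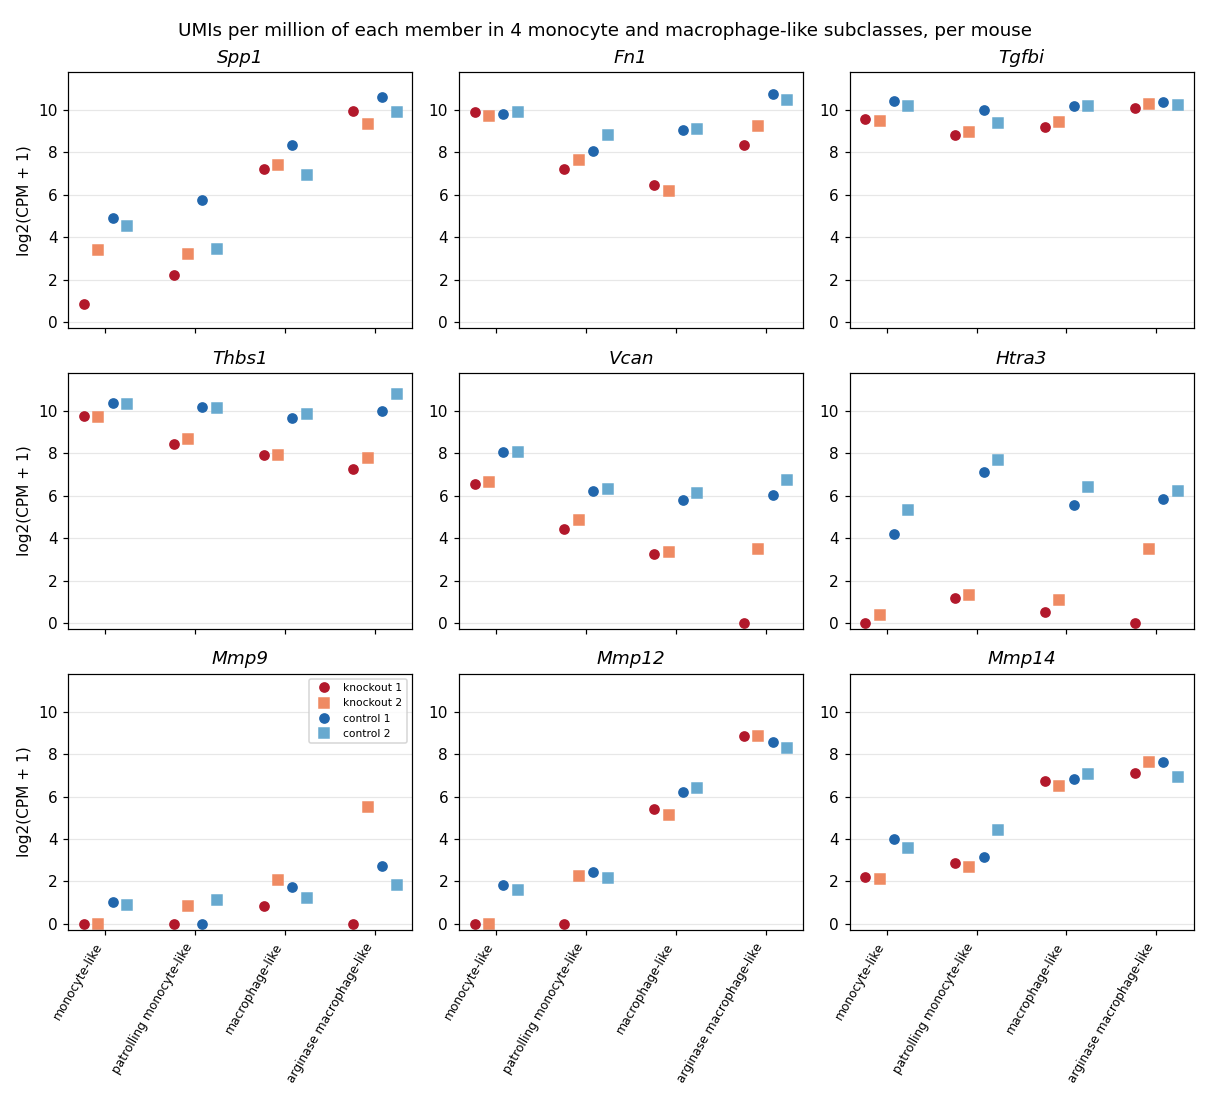
Level of each gene, as log2(CPM + 1) on the y axis, in monocyte-like, patrolling monocyte-like, macrophage-like and arginase macrophage-like cells, with 1 point per mouse, coloured as in the plot by leukocyte class. Fn1 is alike in the 4 mice in monocyte-like cells (832 to 955 CPM) and separates by genotype in macrophage-like cells, Spp1 and Mmp12 climb toward arginase cells, and Htra3 is near 0 in the knockout mice in most subclasses.

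Tgfbi and thrombospondin-1 were lower in the knockout mice in monocyte-like, patrolling and macrophage-like cells alike. For Tgfbi, monocyte-like cells had 764 and 718 CPM in the knockout mice against 1355 and 1184 CPM in the control mice. Macrophage-like cells had 578 and 687 CPM of Tgfbi against 1151 and 1154 CPM. Both sets lack overlap, and over the whole class the values were 613 and 690 CPM against 1262 and 1163 CPM, with a fitted difference of -1.01 ± 0.12, or 2.01-fold. In the arginase cluster the knockout values, 1082 and 1265 CPM, overlapped the control values of 1324 and 1197 CPM.

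For Thbs1, monocyte-like cells had 857 and 833 CPM in the knockout mice against 1343 and 1290 CPM in the control mice. Macrophage-like cells had 240 and 245 CPM of Thbs1 against 823 and 925 CPM. The distance was larger in the macrophage-like cells, at -1.91 ± 0.13 against -0.67 ± 0.10 in monocyte-like cells, though the difference between these 2 fits was not tested. The whole class had 428 and 451 CPM of Thbs1 against 1066 and 1249 CPM, or 2.85-fold lower in the knockout.

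Versican was higher in monocyte-like than in macrophage-like cells in every mouse. Monocyte-like cells had 93.1 and 99.7 CPM of Vcan in the knockout mice against 263 and 270 CPM in the control mice, a fitted difference of -1.50 ± 0.12, or 2.82-fold. Macrophage-like cells had 8.54 and 9.09 CPM against 54.6 and 67.9 CPM, a difference of -2.85 ± 0.19. Neither pair of groups overlaps. Of monocyte-like cells, 35.6% and 39.4% had a Vcan UMI in the knockout mice against 70.0% and 69.1% in the control mice (6.71%, 7.34%, 20.9% and 21.2% at 1000 UMIs), while B-like shares were 0.0605% to 1.29%.

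Htra3 was the protease that differed most between the genotypes. The monocyte/macrophage-like class held 4 and 12 Htra3 UMIs in the knockout mice against 2594 and 3870 UMIs in the control mice. That corresponds to 0.437 and 1.17 CPM (exact Poisson 95% intervals of 0.119 to 1.12 and 0.606 to 2.05, for counting error only) against 41.2 and 61.9 CPM. The level of 3 UMIs is 0.327 CPM in knockout 1, inside the interval of that mouse, and 0.293 CPM in knockout 2, below its interval. The fitted difference was -6.08 ± 0.43, or 67.7-fold, and it was -5.55 without knockout 1 and -7.05 without knockout 2. Patrolling monocyte-like cells had the highest level in the control mice, with 139 and 204 CPM against 1.24 and 1.53 CPM, the latter from 2 UMIs in each knockout mouse. Of patrolling cells, 45.0% and 57.3% had a Htra3 UMI in the control mice and 0.830% and 0.943% in the knockout mice, and 16.6%, 19.3%, 0% and 0.478% at 1000 UMIs. In monocyte-like cells the knockout mice together had 1 Htra3 UMI and the control mice 1689.

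Htra3 was not absent from the knockout libraries. T or NK-like cells had 10.9 and 8.26 CPM in the knockout mice against 2.03 and 3.39 CPM in the control mice, the latter from 1 and 2 UMIs. In the knockout mice 27 of 768 and 25 of 918 of these cells carried 39 and 34 Htra3 UMIs, with at most 4 in a cell. Their level was 904% and 454% of the whole-library level, beside 5.33% and 2.79% for the median macrophage marker in the same cells. Most of it lay in a cluster led by Gzmc, Klrb1b and Ncr1, at 12.0 and 8.68 CPM. The order between genotypes was therefore opposite in T or NK-like and in monocyte/macrophage-like cells, and this contrast was not tested.

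Macrophage elastase followed the arginase cells. Mmp12 stood at 464 and 458 CPM in the arginase macrophage-like cells of the knockout mice and at 384 and 309 CPM in those of the control mice. Here both knockout values are above both control values, from 48 and 133 UMIs. Macrophage-like cells had 41.9 and 33.6 CPM against 72.2 and 83.9 CPM, without overlap and in the other direction, with a fitted difference of -1.11 ± 0.15. Monocyte-like cells had 0 Mmp12 UMIs in both knockout mice and 124 in the control mice together, which puts the knockout at least 4.33-fold lower when 3 UMIs over the group are taken as the floor.

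The whole class had 27.7 and 31.2 CPM of Mmp12 in the knockout mice against 124 and 71.3 CPM in the control mice, a fitted difference of -1.84 ± 0.28. At the control mix of subclasses, however, the knockout mice had 106 and 103 CPM and the control mice 102 and 90.4 CPM. Both knockout values then lie above both control values, so the direction for the whole class turned when all 4 subclasses were reweighted, with knockout arginase values that rest on 9 and 24 cells. Without the arginase cluster alone the direction did not turn, and the class had 22.7 and 18.7 CPM against 37.2 and 30.2 CPM, a fitted difference of -0.80.

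Mmp14 had the smallest fitted difference in the class after Mmp9, at -0.59 ± 0.19. Macrophage-like cells had 106 and 88.3 CPM in the knockout mice against 113 and 134 CPM in the control mice, a difference of -0.41 ± 0.14. Over the class the values were 60.3 and 53.9 CPM against 96.1 and 63.3 CPM, with control 2 close to knockout 1. Without arginase cells they were 59.5 and 49.7 CPM against 63.5 and 53.5 CPM, and the groups overlapped. Monocyte-like cells carried little Mmp14, with 3.55 and 3.39 CPM against 14.9 and 10.96 CPM.

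Mmp9 was a neutrophil gene in all 4 mice. Neutrophil-like cells had 550 and 608 CPM in the knockout mice against 1027 and 877 CPM in the control mice. Control values were higher without overlap, and the fitted difference was -0.65 ± 0.24, or 1.57-fold. Neutrophil-like cells held 70.7% and 58.7% of all Mmp9 UMIs in the knockout libraries and 92.1% and 93.9% in the control libraries. Monocyte/macrophage-like cells were at 0.437 to 3.03 CPM, and the groups overlapped there.

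The neutrophil-like class was itself mixed. In the cluster led by Asprv1 and Retnlg, Mmp9 stood at 543 and 504 CPM in the knockout mice against 656 and 715 CPM in the control mice. In the cluster led by G0s2, Cxcl3 and Il1a it stood at 1023 and 1185 CPM against 1418 and 1060 CPM, with overlap. The latter cluster held 4 and 33 cells in the knockout mice against 955 and 740 in the control mice, so the lower Mmp9 of the whole knockout class went with a near lack of these cells. Whether that mix accounts for the difference was not tested.

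Thbs1 in neutrophil-like cells was 2001 and 1307 CPM in the knockout mice against 2013 and 1876 CPM in the control mice, so the groups overlapped over the class. In the Asprv1 cluster Thbs1 was 2118 and 1449 CPM against 2594 and 2656 CPM. In the G0s2 cluster Thbs1 was 1278 and 967 CPM, from 4 and 33 knockout cells, against 1651 and 1748 CPM. In the cluster led by Ngp and Camp it was 1192 and 845 CPM, from 30 and 15 knockout cells, against 1550 and 1641 CPM. Both knockout values were thus below both control values in each cluster, and the part of the cluster mix was not tested. Tgfbi was the exception in direction, with 284 and 251 CPM in knockout neutrophil-like cells and 208 and 159 CPM in control ones. Within the Asprv1 cluster, however, Tgfbi was 312 and 273 CPM against 332 and 348 CPM, so the order turned there. Spp1 was 77.1 and 122 CPM against 188 and 116 CPM, with overlap. Neutrophil-like cells had 26.1 and 11.2 CPM of Fn1 against 72.7 and 70.7 CPM, only 1.13 to 1.80 times what the macrophage markers in the same cells would give as free RNA or admixed macrophages. Htra3 had 0 UMIs in the knockout and 43 in the control neutrophil-like cells, at least 4.89-fold lower with 3 UMIs over the group as the floor.

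Conventional dendritic-like cells carried Tgfbi, Htra3 and Mmp12 above what their macrophage marker RNA would give, 4.59 to 16.9, 12.7 to 31.2 and 10.98 to 26.8 times as much. Their Htra3 was 1.93 and 7.35 CPM in the knockout mice against 53.0 and 47.1 CPM in the control mice, a fitted difference of -3.36 ± 0.47, which was -2.70 without knockout 1 and -4.63 without knockout 2. In type 2 dendritic-like cells, which express Cd209a, it was 4.29 and 11.78 CPM against 67.8 and 56.0 CPM, and in type 1 cells, which express Xcr1, 0.324 and 0.882 CPM against 21.6 and 30.1 CPM. Neither pair overlaps, and type 2 cells were higher than type 1 cells in each mouse. Mmp12 in the whole dendritic-like class was 13.1 and 27.8 CPM against 56.7 and 46.0 CPM. In type 2 cells Mmp12 was 22.9 and 40.17 CPM against 80.0 and 40.22 CPM, so knockout 2 and control 2 nearly met, and in type 1 cells it was 6.48 and 9.70 CPM against 7.21 and 56.9 CPM, with overlap. Tgfbi in the whole class was 220 and 258 CPM against 382 and 330 CPM, a difference of -0.53 ± 0.13. Tgfbi was 256 and 276 CPM against 477 and 365 CPM in type 2 cells, without overlap, and 195 and 231 CPM against 180 and 265 CPM in type 1 cells, with overlap. The class held 188 and 157 type 1 cells beside 200 and 331 type 2 cells in the knockout mice, and 48 and 46 beside 150 and 142 in the control mice.

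Thbs1 in dendritic-like cells was 3.47 and 2.33 CPM in the knockout mice against 80.2 and 29.3 CPM in the control mice. The larger control 1 value came from 174 UMIs, and Thbs1 there was 8.74% of its whole-library level beside 5.13% for the macrophage markers. Fn1, at 6.75 and 14.5 CPM against 59.0 and 50.5 CPM, was 0.587 to 1.58 times the amount expected from those markers. The part of free RNA or of admixed monocytes in these 2 genes was not tested.

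**Figure D4:**
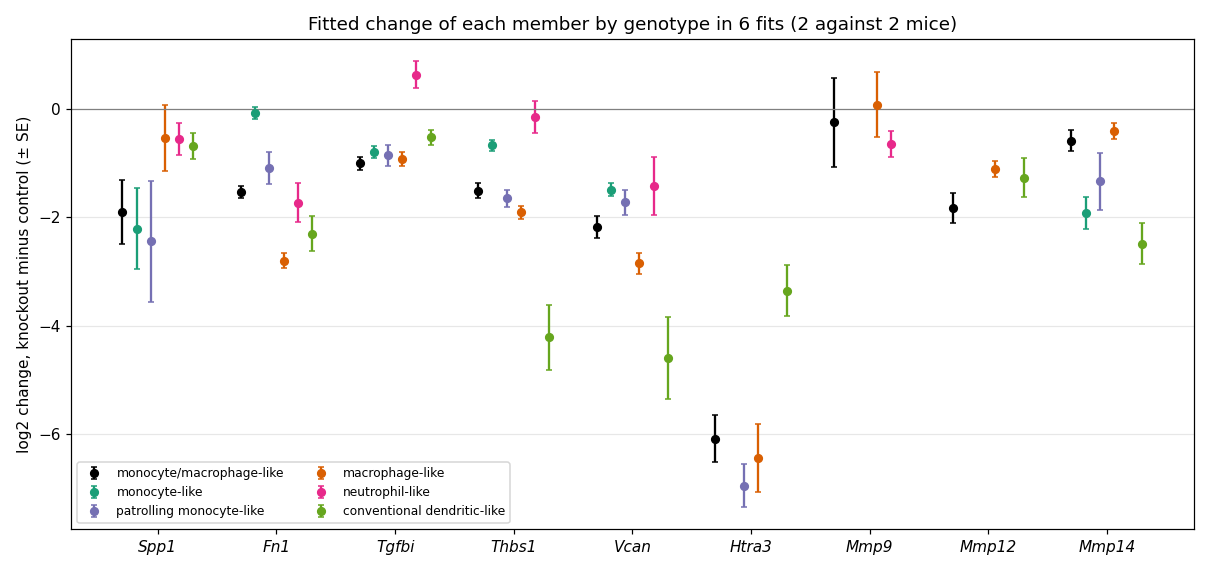
Fitted log2 difference, knockout minus control, with its SE (y axis), for each gene in 6 fits of 2 against 2 mice; genes not tested, or with 3 or fewer UMIs in the knockout mice together, have no point. Fn1 sits at -0.09 in monocyte-like cells and -2.80 in macrophage-like cells, Htra3 between -6.95 and -3.36, and Tgfbi above 0 in neutrophil-like cells alone.

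Of the 9 members, 6 were called lower in knockout monocyte/macrophage-like cells (edgeR, adjusted p below 0.05); the exceptions were Spp1, Mmp9 and Mmp14. Of the 14274 genes tested there, 18.9% were called, 9.14% higher and 9.78% lower. The values of both knockout mice were below both control values for 8 of 9 members, all but Mmp9, as for 23.6% of genes tested. The median fitted difference of the members was -1.54, and that of all genes tested 0.02. In neutrophil-like cells 1 of 7 members tested, Fn1, was called lower, where 5.93% of genes were called, 3.35% higher and 2.58% lower. The Fn1 difference there was -1.73 ± 0.36, and it was -0.46 at clustering resolution 0.5, -0.85 with the stricter cell filter and -2.65 without knockout 1. In conventional dendritic-like cells 6 of 8 were called lower, where 8.62% of genes were called, 3.85% higher and 4.77% lower. In monocyte-like cells 6 of 9 were called lower, where 15.5% of genes were called and 7.92% lower. In macrophage-like cells it was 6 of 9, where 15.7% were called and 8.19% lower, and in patrolling cells 4 of 7, where 11.9% were called and 5.85% lower. The members were picked with this contrast in view, so nothing is read from these counts.

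Lymphocyte classes allow a check for free RNA. In B-like cells Fn1 stood at 1.04 and 0.960 CPM in the knockout mice against 5.96 and 9.80 CPM in the control mice. These are 0.817% to 1.37% of the whole-library levels, where the median of 11 macrophage markers was 1.502% to 2.355%. Both knockout values were below both control values for all 9 members in B-like cells, and the whole-library levels had the same order. This order held for 27.2% of genes tested in B-like cells, a set with only 5 of the 9 members. Htra3, Mmp9, Mmp12 and Mmp14 had too few UMIs there to be tested, at most 6 in a mouse. Over the 5 lymphocyte classes and 4 mice, Fn1 was at 0.543% to 9.62% of its library level, above the highest macrophage marker in 1 of 20 values. Thbs1 and Mmp12 were above it in 0 of 20, so that their lymphocyte signal and free RNA cannot be told apart.

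Spp1, Mmp9 and Htra3 were above the highest macrophage marker in 11, 11 and 10 of the 20 values. Most Mmp9 UMIs lay in neutrophil-like cells, so for Mmp9 this comparison cannot tell lymphocyte signal from free neutrophil RNA. The non-leukocyte cluster held 58.6% and 43.2% of the Spp1 UMIs of the knockout libraries. In those libraries the macrophage markers therefore cannot tell lymphocyte Spp1 from free RNA of that cluster. For Spp1, NK-like cells had 27.7 and 39.9 CPM in the knockout mice against 19.8 and 30.2 CPM in the control mice, at 5.11% to 81.9% of the library level. The groups overlapped. In knockout 2, 11 of 361 NK-like cells held 68 Spp1 UMIs, with up to 32 in a cell, and in control 1, 15 of 634 held 55. Of these Spp1-positive cells, 0%, 18.2%, 0% and 36.4% also had a macrophage marker UMI in knockout 1, knockout 2, control 1 and control 2, beside 9.09%, 10.6%, 15.3% and 30.2% of the other NK-like cells. The share was thus higher in the Spp1-positive cells in knockout 2 and control 2 and lower in the other mice.

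CD8 T cells had 0.280 and 8.24 CPM of Spp1 in the knockout mice against 37.4 and 31.9 CPM in the control mice. In control 1, a single cell held 78 of the 101 UMIs. A T-like cluster led by Ccl1, Penk and Lag3, with exhaustion receptor Pdcd1 among its top genes, had 138 CPM of Spp1 in knockout 2, from 1 cell, and 270 and 101 CPM in the control mice. It held 24 cells in knockout 2, none in knockout 1, and 50 and 227 in the control mice. CD4 T cells had 6.64 and 16.8 CPM of Spp1 against 8.94 and 25.3 CPM, with overlap.

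Mmp9 in CD4 T cells was higher in the knockout mice, the opposite order to neutrophil-like cells. These CD4 T cells had 24.5 and 15.0 CPM in the knockout mice against 11.9 and 4.22 CPM in the control mice. In a T-like cluster led by Il17a, Cd40lg and Cd4, Mmp9 stood at 25.5 and 26.1 CPM against 5.97 and 2.72 CPM, and 8.08% and 8.07% of its cells had a UMI, against 1.65% and 0.407%. In a T-like cluster led by Tnfrsf4, Foxp3 and Ctla4, Mmp9 was 7.43 and 9.66 CPM against 14.7 and 8.14 CPM, with overlap. That cluster held 66 and 138 knockout cells against 205 and 285 control cells. The part of the mix of T cell clusters in the CD4 T difference was not tested. The order was not limited to CD4 T cells. In the Gzmc cluster of T or NK-like cells, Mmp9 was 30.8 and 23.97 CPM against 0 and 20.1 CPM. Neutrophils were fewer in the knockout libraries, where Mmp9 over the whole library was 26.7 and 13.5 CPM against 50.5 and 42.9 CPM. In CD8 T cells Mmp9 was 2.38 and 4.04 CPM against 4.44 and 2.54 CPM, with overlap, and in B-like cells 0.0651 and 0.24 CPM against 3.57 and 0.612 CPM, in the order of the neutrophil-like cells.

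**Figure D5:**
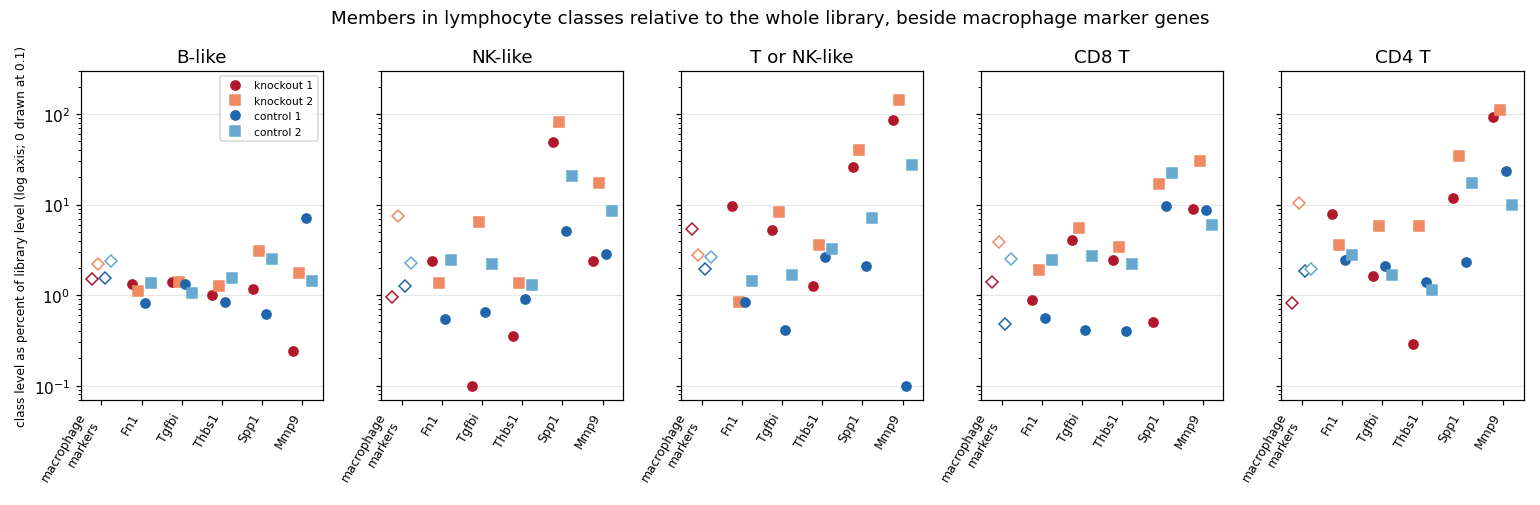
Level of 5 genes in 5 lymphocyte classes as percent of the gene's whole-library level (log y axis, values of 0 drawn at 0.1), beside the median of 11 macrophage markers (open diamonds), with 1 point per mouse. Fn1, Tgfbi and Thbs1 lie near the markers in B-like cells, while Spp1 in NK-like cells reaches 81.9% and Mmp9 in T or NK-like cells 142%.

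Receptors, partner proteases and inhibitors of these proteins were read from 7 lists of 117 genes that leave the members out. In monocyte/macrophage-like cells 8 of 81 list genes tested rose and 24 fell in the knockout, with a median difference of -0.05 beside 0.02 for all genes. Of all genes tested there, 9.14% were called higher and 9.78% lower. The lists were chosen with earlier results of these data known, so the list counts and p-values are descriptions. Without knockout 1 the counts were 1 and 7, and without knockout 2 they were 4 and 11. Of 16 adhesion receptors tested, 2 rose and 1 fell. Cd44, the hyaluronan and osteopontin receptor, fell by 0.57 ± 0.11 in log2 (358 against 491 CPM, adjusted p = 0.0172), and the integrin chain Itga4 rose by 0.82 ± 0.11 (242 against 126 CPM, adjusted p = 0.00399). The integrin chains Itgav and Itgb1 differed by 0.35 ± 0.14 and 0.09 ± 0.11 and did not pass the test (adjusted p = 0.13 and 0.609).

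Of 11 protease inhibitors tested in monocyte/macrophage-like cells, 1 rose and 4 fell. Spint1, an inhibitor of membrane serine proteases, fell by 3.16 ± 0.47 (12.2 against 102 CPM, adjusted p = 0.0254). Slpi, the leukocyte protease inhibitor, fell by 1.71 ± 0.29 (125 against 376 CPM, adjusted p = 0.0204), while Serpinb6a rose by 1.55 ± 0.32 (27.6 against 8.62 CPM, adjusted p = 0.0304). The tissue inhibitors of metalloproteinases did not pass: Timp1 was 2.86 against 10.8 CPM and Timp2 33.7 against 23.1 CPM. Fitted alone, macrophage-like and monocyte-like cells had 0 protease inhibitors called higher and patrolling cells 2, and the class without arginase cells had 1. Patrolling cells were 24.2% and 17.1% of class cells in the knockout mice against 3.96% and 3.35% in the control mice. The part of the mix of subclasses in the list results of the whole class was not tested.

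Of 19 other degrading proteases, 1 rose and 7 fell. Ctsb, cathepsin B, rose by 0.75 ± 0.15 (2523 against 1389 CPM, adjusted p = 0.0199), while Ctsl, cathepsin L, fell by 1.28 ± 0.15 (147 against 330 CPM, adjusted p = 0.0032). The sheddase Adam8 fell by 1.52 ± 0.12 (24.1 against 63.7 CPM, adjusted p = 0.0011) and the proprotein convertase Furin by 1.32 ± 0.12 (40.3 against 92.7 CPM, adjusted p = 0.00171). Plau, the urokinase, fell by 0.90 ± 0.19 (8.57 against 14.9 CPM, adjusted p = 0.0223), and its receptor Plaur did not pass the test (724 against 757 CPM). Of 6 other matrix metalloproteinases, 1 rose and 1 fell, with a median difference of 0.62. The one that fell was Mmp19, by 2.49 ± 0.39 (7.90 against 40.99 CPM, adjusted p = 0.0203).

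Of 13 other matrix proteins, 1 rose and 6 fell, and of 10 cross-linking and collagen-processing enzymes 1 rose and 4 fell. Gpnmb, a transmembrane glycoprotein of lipid-laden macrophages, rose by 2.61 ± 0.38 over the whole class (133 against 20.1 CPM, adjusted p = 0.0215). Yet 0 other matrix proteins were called higher in macrophage-like cells alone, monocyte-like cells alone or the class without arginase cells, and 1 in patrolling cells alone. In the whole class, Ecm1 fell by 1.76 ± 0.22 (32.9 against 103 CPM, adjusted p = 0.00605), Srgn, the granule proteoglycan serglycin, by 0.85 ± 0.12 (2023 against 3378 CPM, adjusted p = 0.00565) and Emilin2 by 0.74 ± 0.16 (233 against 359 CPM, adjusted p = 0.0221). The transglutaminase Tgm2 fell by 1.28 ± 0.13 (178 against 402 CPM, adjusted p = 0.00214). Of 6 latent TGF-beta genes 1 rose and 1 fell. Nrros, which anchors latent TGF-beta on macrophages, rose by 0.44 ± 0.11 (246 against 167 CPM, adjusted p = 0.0389), and Tgfb1 itself, at 378 against 394 CPM, did not pass.

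In neutrophil-like cells 2 of 55 list genes tested rose and 5 fell, where 3.35% of all genes tested were called higher and 2.58% lower. Mmp25, the membrane metalloproteinase of neutrophils, fell by 2.48 ± 0.32 (12.0 against 74.3 CPM, adjusted p = 0.00695), and Tgm1 by 3.86 ± 0.50 (1.52 against 24.8 CPM, adjusted p = 0.00695). Ctsd, cathepsin D, rose by 1.62 ± 0.27 (1051 against 360 CPM, adjusted p = 0.0123). These are differences of the whole class, in which the G0s2 cluster held 4 and 33 knockout cells against 955 and 740 control cells. The part of that mix in them was not tested. Mmp8, the neutrophil collagenase, was 439 against 333 CPM and did not pass. These counts were unstable: leaving out 1 mouse at a time gave 0 to 8 higher and 2 to 14 lower.

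In conventional dendritic-like cells 2 of 63 list genes tested rose and 18 fell, with a median of -0.30 beside 0.03 for all genes. Among all genes tested in this class, 3.85% were called higher and 4.77% lower. Slpi fell by 4.50 ± 0.40 (1.23 against 29.2 CPM, adjusted p = 0.000422) and Timp1 by 3.26 ± 0.45 (1.64 against 16.7 CPM, adjusted p = 0.00301). Of the galectins, which cross-link matrix glycans, Lgals1 fell by 1.03 ± 0.13 (331 against 696 CPM, adjusted p = 0.0022) and Lgals3 by 0.62 ± 0.10 (999 against 1583 CPM, adjusted p = 0.00511). Without control 1 and without control 2 the number that fell was 4 each time. In B-like, NK-like, CD8 T and CD4 T cells together, 2 list genes were called by edgeR, both lower, and DESeq2 called 2 higher and 4 lower. Of all genes tested there, edgeR called 0.148%, 1.17%, 0.895% and 0.217% in these classes.

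Some genes had a profile close to a member over 28 sums (7 classes by 4 mice) among 7810 genes; these sums share cells' class, library and depth, so the correlations are descriptions. Mmp12 was closest to the mannose receptor Mrc1 (r = 0.977), Thbs1 to Pla2g7 (r = 0.976), Tgfbi to Csf1r (r = 0.970) and Mmp9 to Resf1 (r = 0.963). Fn1 was closest to Ms4a8a (r = 0.941), with F13a1 and Mmp14 next, and Vcan and Mmp14 were each closest to Fn1 (r = 0.927 and 0.933). Spp1 had no partner as close (Cers6, r = 0.904), and Htra3 least of all (Smdt1, r = 0.825). Within control arginase cells thinned to 1000 UMIs, 29.0% and 20.3% of cells had UMIs of both Spp1 and Fn1, where the product of the single shares was 25.3% and 16.5%.

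Markers of other cell types were read beside these results. The summed level of 11 stromal markers, fibroblast collagens among them, was 4.37 and 5.47 CPM in knockout and 10.9 and 13.9 CPM in control monocyte/macrophage-like cells, with Pdgfra at 0 in all 4 mice. Platelet markers, a possible source of Thbs1 and Fn1, summed to 58.4 and 21.9 CPM in the knockout and 36.7 and 17.2 CPM in the control class, so they overlapped. One of them, Pf4, was among the top genes of a macrophage-like cluster. Gp9, Gp1bb and Treml1 were at 0 in both knockout mice, and 1 marker was at 0 in each control mouse. The sum in this class can therefore not be read as platelet RNA alone. In neutrophil-like cells the platelet markers summed to 3.97 to 13.04 CPM, beside 1307 to 2013 CPM of Thbs1. Endothelial markers summed to 26.2 and 21.2 CPM in the knockout monocyte/macrophage-like class against 16.2 and 9.46 CPM in the control class, and tumour epithelial markers to 5.13 and 3.52 CPM against 10.5 and 4.69 CPM. In dendritic-like cells tumour epithelial markers were 14.8 and 16.5 CPM against 55.3 and 31.0 CPM. Hepatocyte markers (102 to 250 CPM) and erythroid markers (0.218 to 237 CPM) overlapped between genotypes in the monocyte/macrophage-like class. The median mitochondrial share of its cells was 0.593% and 0.581% in the knockout and 0.8194% and 1.0215% in the control mice. The part of these markers and of this share in the results was not tested.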

How the data were processed

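Single-cell 5′ gene expression was measured in 4 libraries, 1 per mouse; the T cell receptor libraries were not used. The deposited values are raw UMI counts per gene and cell. The submitters' processing notes name Cell Ranger 8.0.1, Seurat 5.0.1, R 4.4.1 and GRCm39; how cells were called and the annotation release are not given in the sources used here. Cells under 200 genes or over 10% mitochondrial UMIs were dropped, and doublets were called at a rate of 0.8% per 1000 cells. Clustering (scanpy 1.11.5, leidenalg 0.10.2, Python 3.11.15) used 2000 variable genes, 30 components, 20 neighbours and resolution 1, without the 126 genes of the set and its lists, and gave 35 clusters. A marker passed if it was at least 2-fold higher and in at least 10% of the cluster's cells. A cluster was named where at least 3 markers and a share of at least 0.5 of a list passed. Limits on markers of other families and on the leading genes also applied, and clusters that failed stayed unnamed. The arginase cluster passed 5 of 11 macrophage markers, below that share, and was named by a separate rule. That rule asked for a share of at least 0.8 of Arg1, Hilpda, Ero1a, Bnip3, Vegfa and Slc2a1, and for at least 3 macrophage markers. Names are rebuilt here and may differ from those of the study. Counts were summed per mouse and class with at least 30 cells per mouse and tested with edgeR 4.0.16 (quasi-likelihood, TMM, R 4.3.3), with Benjamini-Hochberg adjustment over all genes tested and a threshold of 0.05; DESeq2 1.42.0 was an alternative. CPM are per class total without TMM factors, and in monocyte/macrophage-like cells TMM shifted log2 differences by -0.11 against totals. SE were derived from the log2 difference and the F statistic. Shares were also read after thinning cells to 1000 UMIs; intervals and floors of 3 UMIs cover counting error only. The 9 genes and the lists were chosen with earlier results of these data known. List genes named in the text are up to 3 called genes per list and direction, by size of change, with a mean of at least 20 CPM in 1 genotype, and 12 genes always named. One list gene that this rule selects is not reported here.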

Additional observations from a re-analysis of the deposited data

How the results depend on the processing

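For the list genes of monocyte/macrophage-like cells, leaving out 1 mouse gave 1 to 10 higher and 7 to 24 lower, and for conventional dendritic-like cells 0 to 4 and 4 to 24. For neutrophil-like cells it gave 0 to 8 higher and 2 to 14 lower, and for the lymphocyte classes 3 to 16 and 0 to 21. In the monocyte/macrophage-like comparison, macrophage-like cells alone gave 5 higher and patrolling cells alone 14 lower. In neutrophil-like cells the higher calls were 5 without a filter on low counts, 4 with DESeq2 and 7 at resolution 0.5, and the lower calls 15 without the filter, 3 with doublets kept and 11 at resolution 0.5. In dendritic-like cells the higher calls were 1 without scaling factors, 1 with DESeq2 and 4 at resolution 2. In the lymphocyte classes the higher calls were 11 without the filter, 2 with DESeq2, 2 with doublets kept, 1 with a stricter filter and 1 at resolution 2, and the lower calls 21, 4, 31 with doublets kept and 6 at resolution 2.

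Whether the replicate numbers pair the mice is not known. Deviations of same-numbered mice had correlations of -0.0549 to 0.0961, which give no sign of pairing but cannot exclude it. With the replicate number as a block, higher and lower calls were 8 and 24 in monocyte/macrophage-like, 4 and 10 in neutrophil-like, 4 and 22 in dendritic-like and 6 and 12 in lymphocyte classes. The causes of these shifts were not tested. The Spp1 difference in monocyte/macrophage-like cells was -2.45 without control 2 and -1.01 without control 1. Precision is limited by 2 mice a group and, in arginase cells, by the 9 and 24 cells of the knockout mice.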
